A study of Mus musculus with 171 samples.

Results

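The cells described here are the single cells of the inner cell mass (ICM) of wild-type mouse embryos at embryonic day (E) 3.5. They were taken as the 64 of 171 sequenced cells whose titles carry the stage E3.5 and the genotype WT, which the labels give as Stat3 +/+. They came from 5 embryos: 7 cells from embryo 13, 15 from embryo 16, 14 from embryo 20, 17 from embryo 21 and 11 from embryo 22. For comparison, the series holds 55 ICM cells of 5 Stat3 -/- (MUT) embryos of the same stage, and 19 cells labelled epiblast (EPI) and 10 labelled primitive endoderm (PrE) from 3 wild-type E3.75 embryos. The source label of the E3.75 cells gives E3.5, and the stage in their titles is used. The sources used here do not name the strain, the way cells were isolated or the library method. They also do not say how the EPI and PrE labels were assigned, so marker expression may have been used for it.

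The ICM is the group of cells inside the blastocyst that gives rise to the epiblast, the source of the fetus, and to the primitive endoderm, an epithelium of the later yolk sac. Nanog, a homeodomain factor, is needed for epiblast, and Gata6, a zinc-finger factor, for primitive endoderm. The lineages are known to sort out through FGF4, a ligand made by future epiblast cells, and its receptors, among them FGFR2, on future primitive endoderm. Pdgfra, Gata4, Sox17 and Sox7 are then switched on in the endoderm, followed by genes of the basement membrane.

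The promoters of Nanog and of Pdgfra, which encodes a receptor tyrosine kinase of the endoderm, are shown because levels of these genes ran in opposite directions over the 64 cells (Spearman rho −0.50 with embryo means removed), though not in every embryo. The correlation was −0.64, −0.56, 0.01, −0.83 and −0.22 in embryos 13, 16, 20, 21 and 22. Each run is the 250 bases before a RefSeq transcription start (GRCm38.p6), 5′ to 3′ on the + strand, on which both genes lie, chr6:122707239-122707488 for Nanog (the first of 2 starts in the table) and chr5:75152001-75152250 for Pdgfra. Capitals mark matches, on either strand, to the GATA-factor motif AGATAA, the octamer motif ATGCAAA or the SOX motif ACAATG.
Nanog: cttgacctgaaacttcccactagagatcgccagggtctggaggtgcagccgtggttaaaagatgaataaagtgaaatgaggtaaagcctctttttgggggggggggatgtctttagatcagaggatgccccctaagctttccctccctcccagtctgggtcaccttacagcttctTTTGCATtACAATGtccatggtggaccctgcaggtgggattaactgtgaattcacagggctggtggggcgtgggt
Pdgfra: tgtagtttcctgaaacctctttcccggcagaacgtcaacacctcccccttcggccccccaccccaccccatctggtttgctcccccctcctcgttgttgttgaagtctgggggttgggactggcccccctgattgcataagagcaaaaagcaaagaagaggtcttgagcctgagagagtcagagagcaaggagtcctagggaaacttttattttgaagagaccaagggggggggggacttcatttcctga
The Nanog run held 1 octamer match on the opposite strand, which starts 75 bases before the start of transcription, and 1 SOX match 67 bases before it, so the 2 are next to each other without overlap. None of the 3 motifs was found in the Pdgfra run. Among 4239 promoters of this length whose gene had a mean of at least 20 CPM (counts scaled to a total of 1000000 per cell) in these cells, 2.36% held the octamer, 5.54% the SOX motif and 5.66% the GATA motif. A match describes the letters and not a bound site.

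Total counts per wild-type ICM cell ran from 167101 to 25095390 (median 5064704.5), and 5843 to 10227 genes were detected (median 8707). The E3.75 EPI and PrE cells were deeper, with medians of 11050855 and 11123514 counts. Ribosomal RNA genes took a median of 10.5% of counts (4.496 to 31.8%), with the highest embryo median, 26.8%, in embryo 13. By X- and Y-linked reads, embryos 13, 16 and 20 were male and embryos 21 and 22 female. In 3 of the 14 cells of embryo 20, Xist counts were at or above Y-linked counts, unlike in the other 11, and values without these cells stand in the closing section. Y-linked reads also gave a measure of stray reads: 18 of the 28 cells from female embryos had at least 1, but at most 3, or 5.93 CPM. A gene was therefore counted as expressed in a cell from 10 CPM, which no female-embryo cell reached for the summed Y-linked genes and 28 of 36 male-embryo cells did. However, Xist reached 10 CPM in 4 of the 36 male-embryo cells, among them cell 01 with letter E of embryo 16 (26.7 CPM). The Y-linked sum had a median of 96.4 CPM in male-embryo cells. Stray reads of more abundant genes were not measured and may exceed 10 CPM. Of 2016 pairs of cells, same-embryo pairs with different cell numbers had a median Pearson correlation over 5399 genes of 0.48 and pairs from different embryos 0.44. Within embryos, the median was 0.504 for pairs with the same title letter and 0.475 for other pairs. A few pairs share embryo and cell number but differ in letter, with correlations from 0.41 (cell 01 of embryo 22) to 0.59 (cell 01 of embryo 16). No pair had identical counts.

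Ribosomal and mitochondrial transcripts led the most abundant genes. The 20 genes with the highest mean CPM (mean of the 5 embryo means) took a median of 21% of a cell's counts (13.9 to 41.4%). A ribosomal RNA gene led with 9.10%, followed by the mitochondrial rRNA mt-Rnr2 with 4.57% and the mitochondrial mRNAs mt-Co1, mt-Nd1 and mt-Cytb with 1.64%, 1.64% and 1.01%. The highest nuclear mRNA was Dppa5a, a KH-domain protein gene of pluripotent cells, with 0.667%. It was followed by the cytosolic HSP90 genes Hsp90aa1 and Hsp90ab1 (0.513% and 0.511%), the ferritin light chain gene Ftl1 (0.436%), the translation factor gene Eef1a1 (0.376%) and Spp1 (0.364%), which encodes the secreted protein osteopontin. Npm1, Map1lc3b, H3f3b, Hspa8, Prdx1, Calcoco2, mt-Nd5, mt-Rnr1 and the long noncoding RNA Gm26917 completed the 20. Per kilobase of exon, Dppa5a stood at 10778 CPM, between mt-Nd1 (17104) and mt-Co1 (10608). Ftl1 stood at 3255 and Spp1 at 2209 CPM per kilobase.

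The defining markers of both later lineages were present, at very different frequencies. Nanog (chromosome 6, 122707489 to 122714633, mm10) ran from 1.11 to 1634 CPM with a median of 192, and 52 of 64 cells reached 10 CPM. Its median was 580 CPM in embryo 13, 313 in embryo 16, 304 in embryo 20, 32.5 in embryo 21 and 112 in embryo 22. Levels within every embryo spanned low and high cells, with a within-embryo SD of 2.72 on the log2(CPM + 1) scale. Gata6 (chromosome 18, 11052064 to 11085635) ran from 0 to 264 CPM with a median of 16.4, and 38 cells reached 10 CPM. Its embryo medians, in the same order, were 2.51, 24.2, 8.10, 16.1 and 42.9 CPM.

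Tdgf1 (chromosome 9, 110939603 to 110946158), the Nodal co-receptor Cripto, was found at 10 CPM or more in all 64 cells, from 10.9 to 4408 CPM (median 1421). Its processed pseudogene Tdgf1-ps1 followed it closely over the cells (Spearman rho 0.97, median 57.3 CPM), so reads may be shared between the 2 and both levels are uncertain. Fgf4 (chromosome 7, 144847367 to 144865243) reached 10 CPM in 25 cells, with a median of 1.47 and a maximum of 271 CPM. Its receptor gene Fgfr2 (chromosome 7, 130162451 to 133123350) reached 10 CPM in 18 cells, with a median of 0.48 and a maximum of 205 CPM. Pdgfra (chromosome 5, 75152292 to 75198215) did so in 43 cells, with a median of 98.0 and a maximum of 1235 CPM. Sox17 (chromosome 1, 4490931 to 4497354) was rare: 9 cells reached 10 CPM, the median was 0.32, and the highest cell, cell 09 of embryo 22, stood at 42.9 CPM. That maximum lay far below the median of 520 CPM in E3.75 PrE cells. The gene was also more frequent in E3.75 EPI cells, where 8 of 19 (42.1%) reached 10 CPM, against 14.1% of the ICM cells. Embryo 16 had no cell at 10 CPM of Sox17, embryo 13 had 1, embryos 20 and 22 had 2 each and embryo 21 had 4.

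**Figure D1:**
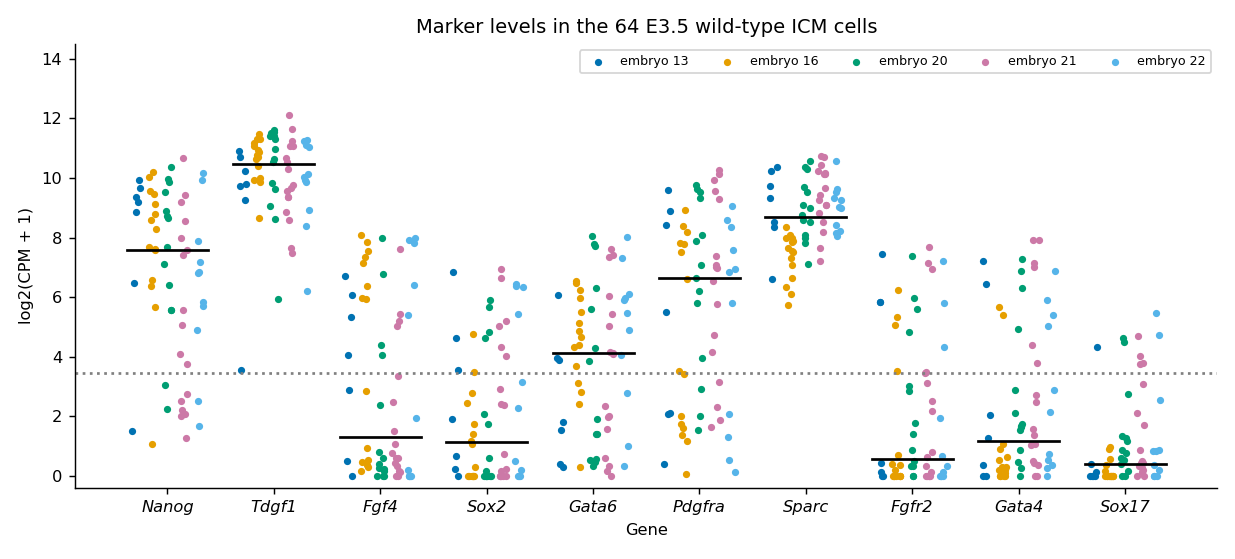
Each point is 1 of the 64 wild-type ICM cells, coloured by embryo, and the y axis is log2(CPM + 1); black lines are medians over the 64 cells and the dotted line marks 10 CPM. Tdgf1 and Sparc lay above the line in all 64 cells, whereas Sox17 did so in 9.

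Other endoderm genes differed in the same way. Sparc, a secreted matrix glycoprotein, was at 10 CPM or more in all 64 cells (52.6 to 1710 CPM, median 411), and the laminin gene Lamb1 in 54. Gata4 and Dab2, an endocytic adaptor, reached 10 CPM in 18 and 17 cells, Sox7 in 12, Foxq1 in 3 and Foxa2 in 2. Of the 20 PrE markers, 7 reached 10 CPM in more than 32 cells, and of the 11 EPI markers 5 did. Among EPI markers, Bmp4 (60 cells), Gdf3 (57), both ligands of the TGF-beta superfamily, and Morc1 (38) were frequent, and Esrrb (27), Prdm14 (20), Sox2 (19), Klf2 (18) and Enox1 (11), of which Esrrb, Prdm14, Sox2 and Klf2 are transcriptional regulators of pluripotency, were not. All 64 cells had at least 1 EPI and 1 PrE marker at 10 CPM, and 60 had at least 3 of each. That is not particular to this stage: 19 of 19 EPI and 9 of 10 PrE cells at E3.75 also had at least 3 of each.

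Nanog and Gata6 were often found in the same cell, yet their levels ran against each other. At 10 CPM, 28 of 64 cells had both (43.8%, exact 95% binomial interval 31.4 to 56.7%, counting error alone), 24 had Nanog alone, 10 had Gata6 alone and 2 had neither. If the 2 genes were spread independently, 48.2% of cells would have both. At a common depth of 1000000 counts, 26 of the 61 cells deep enough had both. In embryo 16, 11 of 15 cells had both genes and 0 had Gata6 alone, whereas in embryo 21 4 of 17 had both and 5 had Gata6 alone. Embryos 13, 20 and 22 had both in 2 of 7, 5 of 14 and 6 of 11 cells. Stray reads of either gene were not measured, and their part in these counts was not tested. With embryo means removed, the Spearman correlation of Nanog and Gata6 was −0.63 over the 64 cells, which share embryos and differ in depth, so no p is given. It was negative in each embryo, at −0.71 in embryo 13 (7 cells), −0.49 in embryo 16 (15), −0.49 in embryo 20 (14), −0.70 in embryo 21 (17) and −0.67 in embryo 22 (11). At E3.75, 5 of 19 EPI cells and 6 of 10 PrE cells also had both genes at 10 CPM, but at unequal levels: Nanog medians were 955 and 28.3 CPM and Gata6 medians 0.47 and 91.3 CPM.

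**Figure D2:**
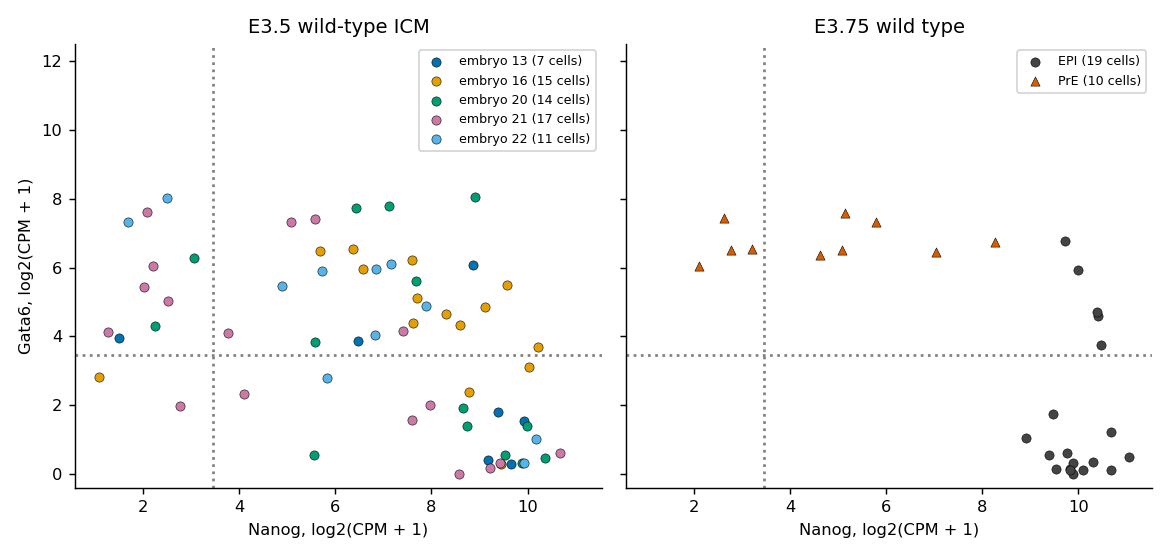
Each point is 1 cell, with log2(CPM + 1) of Nanog on the x axis and of Gata6 on the y axis; the left panel holds the 64 wild-type ICM cells coloured by embryo and the right panel the 19 EPI and 10 PrE cells at E3.75. Dotted lines mark 10 CPM, and 28 ICM cells lie in the upper right field.

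The 28 cells with both genes lay between the other classes for some markers and not for others. Their median was 140 CPM for Nanog against 673 in the 24 cells with Nanog alone, and 45.9 CPM for Gata6 against 53.3 in the 10 with Gata6 alone. The classes were cut on Nanog and Gata6 at 10 CPM. Each of these genes is therefore higher in the 28 cells than in the class without it by definition. Only the comparison with the class that has the gene alone was not fixed by the cut. Pdgfra had its highest median in the 28 cells with both genes, with 222 CPM against 4.89 with Nanog alone and 148 with Gata6 alone. Sparc medians were 353, 327 and 1257 CPM in the same order. Fgf4 reached 10 CPM in 11 of 28, 13 of 24 and 0 of 10 cells, and Fgfr2 in 11 of 28, 1 of 24 and 6 of 10. The ligand and receptor genes themselves met in few cells. Fgf4 and Fgfr2 were both at 10 CPM in 3 cells (4.69%, exact 95% interval 0.977 to 13.1%, counting error alone), with 22 cells for Fgf4 alone and 15 for Fgfr2 alone. Independence would give 11%, which lies inside that interval. The within-embryo Spearman correlation of Fgf4 and Fgfr2 was −0.36, and it was negative in all 5 embryos (−0.51 to −0.21). Among the 9 cells with Sox17, 8 had Gata6, 7 Pdgfra, 5 Nanog, 5 Sox2, 4 Gata4 and 4 Sox7 at 10 CPM. Over all 64 cells the shares were 59.4%, 67.2%, 81.25%, 29.7%, 28.1% and 18.75% in the same order. Whether the Sox17 cells differ from these shares was not tested.

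Over all 64 cells, the EPI markers varied together, as did the PrE markers, and the lists ran against each other. Over the 8 EPI and 12 PrE markers with a mean of at least 20 CPM, the median within-embryo Spearman correlation was 0.23 among EPI pairs (20 of 28 pairs above 0), 0.35 among PrE pairs (66 of 66 above 0) and −0.20 between the lists (79 of 96 below 0). Embryos differed in this: the median between the lists was −0.43 in embryo 13, −0.02 in embryo 16, −0.25 in embryo 20, −0.20 in embryo 21 and −0.19 in embryo 22. In embryo 16 the median among EPI pairs was 0.09, against 0.24 to 0.31 in the others. The median over all pairs of the 5399 genes at that level was 0.03. The lists were chosen with earlier results of these data known, so the contrast with all pairs is not independent evidence. The strongest PrE pairs were Fgfr2 with the laminin gene Lama1 (0.63), Gata6 with Sparc (0.59) and Gata6 with Fgfr2 (0.57). Among EPI markers, Nanog correlated with Fgf4 (0.54), Tdgf1 (0.53), Gdf3 (0.42), Prdm14 (0.40), Esrrb (0.35) and Morc1 (0.35). Bmp4 went another way: it had a median correlation of −0.08 with the other EPI markers and was positively correlated with all 12 PrE markers, most with Pdgfra (0.39), although it also followed Tdgf1 (0.45). In the same calculation, the 55 MUT ICM cells gave medians of 0.26, 0.47 and −0.29, and the 29 wild-type E3.75 cells, EPI and PrE together, 0.52, 0.72 and −0.60, where the labels themselves separate the cells. Among the 19 E3.75 EPI cells alone, Nanog and Gata6 had a correlation of 0.19 and the lists one of −0.05. These are descriptions of cells within each group and the differences between groups were not tested.

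**Figure D3:**
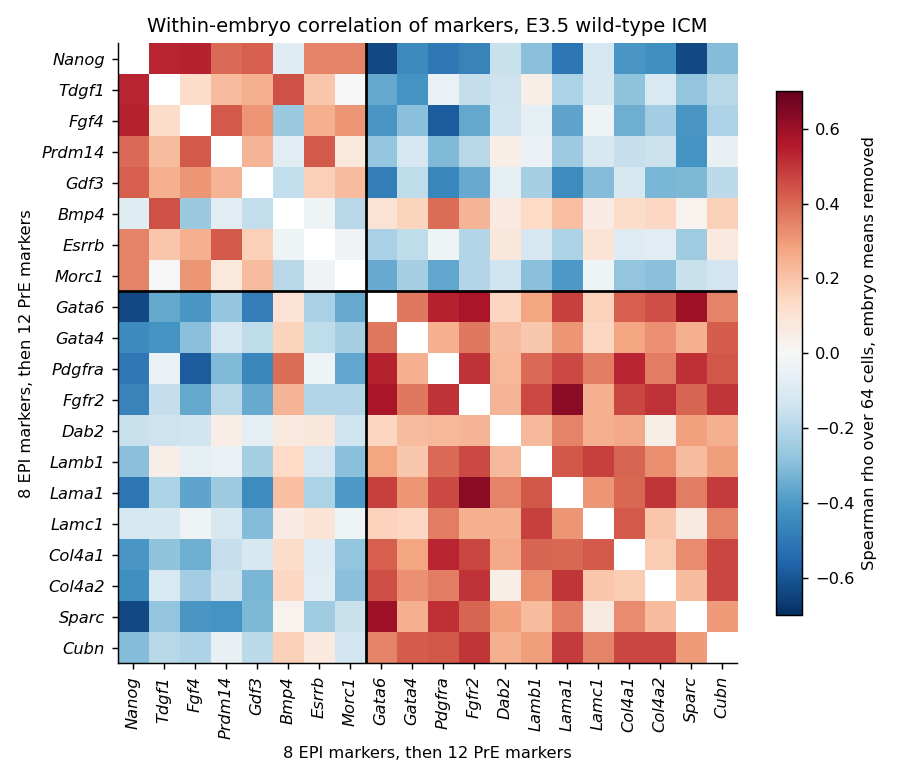
Colour gives the Spearman correlation over 64 wild-type ICM cells with embryo means removed, for 8 EPI and then 12 PrE markers on both axes, divided by black lines; the diagonal is blank. The lower right block (PrE with PrE) is positive throughout, and the row of Bmp4 is positive against the 12 PrE markers.

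The genes nearest to Nanog and Gata6 over the cells included several outside the marker lists. Of 5399 genes, the 8 with the highest correlation with Nanog were Trim43a (0.71), a TRIM-family gene, Spic (0.60), an ETS-domain factor, Dusp14 (0.59), a phosphatase, Prps1 (0.59), a nucleotide synthesis enzyme, Pdpn (0.59), the membrane glycoprotein podoplanin, Glrx (0.59), a glutaredoxin, Gm4737 (0.57) and the claudin gene Cldn4 (0.56). For scale, 90% of all genes lay between −0.24 and 0.27. Trim43a ran from 0 to 1407 CPM, with 38 cells at 10 CPM, and its medians at E3.75 were 72.4 CPM in EPI and 0.995 in PrE. The lowest values were those of Sdc4 (−0.70), a heparan sulfate proteoglycan of the cell surface, Sparc (−0.63), Gata6 and Pgam2 (−0.63), a phosphoglycerate mutase. With Gata6, the highest were Sdc4 (0.63), the water channel gene Aqp8 (0.62), Sparc (0.59), Fgfr2 (0.57), Cpn1 (0.56), a carboxypeptidase subunit, F2r (0.55), the thrombin receptor, Pdgfra (0.54) and Fam168a (0.53). The lowest with Gata6 were Nanog, Gm14444 (−0.50), Avpi1 (−0.49) and Gdf3 (−0.48), and Nanog ranked lowest of all 5399 genes. Sdc4 ran from 1.65 to 1993 CPM, with 59 cells at 10 CPM. Its median was 83.2 CPM in cells with Nanog alone, 484 in cells with both genes and 915 in cells with Gata6 alone. Because Sdc4 was picked by its correlations with Nanog and Gata6 over these same cells, that order largely follows from the choice.

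Cells were placed on 1 axis by a score, the mean log2(CPM + 1) of the 11 EPI markers minus that of the 20 PrE markers. Wild-type ICM cells ran from −3.27 to 5.64 with a median of 1.98. E3.75 EPI cells lay between 3.55 and 5.97 and E3.75 PrE cells between −6.97 and −0.51. By these bounds 14 ICM cells fell into the EPI range, 12 into the PrE range and 38 between them. The E3.75 cells were deeper, with medians of 11636 (EPI) and 11264 (PrE) genes detected against 8707 in ICM. The part of depth in this placement was not tested. The EPI part of the score had a median of 4.62 in ICM, 7.22 in EPI and 2.85 in PrE cells. The PrE part had medians of 2.60, 2.17 and 6.65 in the same order, so ICM cells lay near EPI cells in it. A middle score therefore does not mean high levels of both lists. The cells in between made up 3 of 7 in embryo 13, 11 of 15 in embryo 16, 10 of 14 in embryo 20, 8 of 17 in embryo 21 and 6 of 11 in embryo 22. The lowest cell, cell 07 of embryo 13, had 1.81 CPM of Nanog, 14.48 of Gata6, 767 of Pdgfra and 1204 of Sparc. The highest cell, cell 04 of the same embryo, had 664 CPM of Nanog, 2.51 of Gata6, 3.23 of Pdgfra and 635 of Sparc. Embryo 16 had the narrowest spread, with all 15 cells between 0.81 and 4.71, but the gap test of the closing section did not flag it. Its mean PrE part was 2.05, below the mean of 2.32 in E3.75 EPI cells.

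The spread of scores within an embryo was compared over embryos. The SD of the score was 3.30 in embryo 13, 1.26 in embryo 16, 2.12 in embryo 20, 2.33 in embryo 21 and 2.32 in embryo 22, a mean of 2.27 ± 0.726 (SD, n = 5 embryos). In the 3 wild-type E3.75 embryos, EPI and PrE cells together, it was 2.71, 5.03 and 3.68 (3.81 ± 1.17), and the groups overlapped. The difference of −1.54 gave an exact two-sided permutation p of 0.0357, and 0.0714 adjusted over the 2 tests made, so it did not pass 0.05. MUT ICM embryos ranged from 2.05 to 3.23 (2.57 ± 0.601, n = 5), a difference of −0.30 (exact permutation p = 0.619, adjusted 0.619). The smallest p these designs allow is 0.0179 for the first and 0.00794 for the second. The numbers of cells per embryo differ (4 to 19), which affects the precision of each SD.

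**Figure D4:**
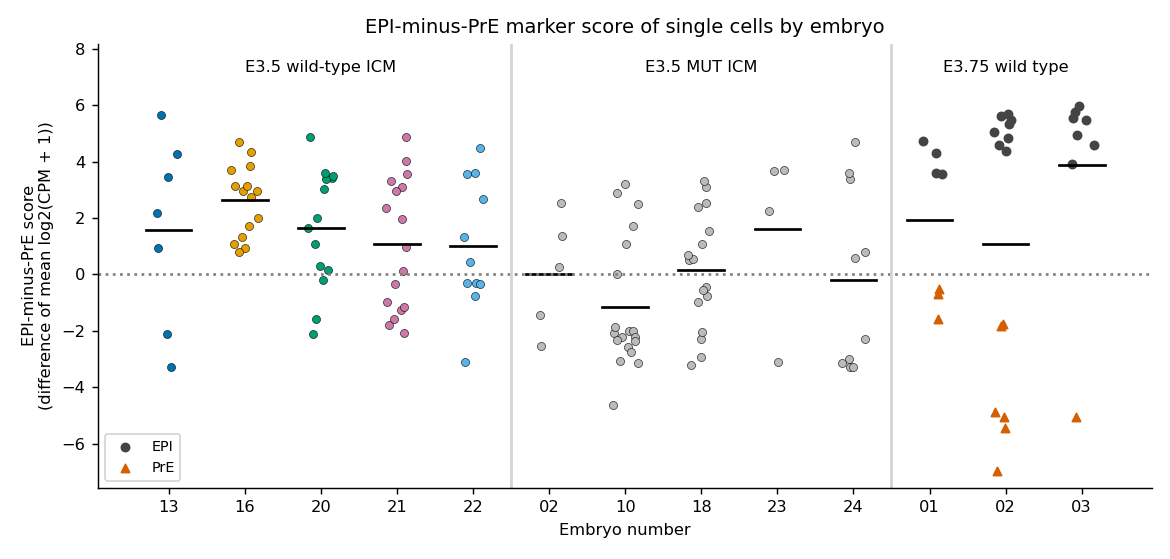
Each point is 1 cell; the y axis is the EPI-minus-PrE score and the x axis the embryo number, for 5 wild-type ICM, 5 MUT ICM and 3 wild-type E3.75 embryos, with black lines at embryo means. The 38 wild-type ICM cells between −0.51 and 3.55 lie in the gap that separates EPI from PrE cells at E3.75. The score is a difference, so a middle value can also come from low levels of both lists.

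Among the genes that varied most from cell to cell within embryos, several followed the same axis. Genes were ranked by their within-embryo variance of log2(CPM + 1) above the trend with mean level. The first was Timd2 (1.05 to 2987 CPM, median 298), a TIM-family receptor, then Pdgfra, Aqp8 (0.41 to 1806, median 98.2), Havcr1 (0.05 to 3743, median 61.9), another TIM-family receptor, and Nanog. Slc7a3, a cationic amino acid transporter, followed (0 to 1556 CPM, median 3.87). Its median was 488 CPM in E3.75 EPI and 2.18 in PrE cells, and its correlation with Nanog was 0.50. Timd2, Aqp8 and Havcr1 were negatively correlated with Nanog (−0.54, −0.61 and −0.42) and positively with Gata6 (0.41, 0.62 and 0.47). Tdrp (0.43 with Nanog), Tdh (0.45), the threonine dehydrogenase gene, and Spic were on the Nanog side. The others of the first 15 had weak correlations with both genes, between −0.20 and 0.19: Glb1 and Laptm4b, which encode lysosomal proteins, 1110059E24Rik, the protease gene Mep1b, the ferritin heavy chain gene Fth1 (3.03 to 5958 CPM) and the metallothionein gene Mt1 (1.99 to 7679 CPM).

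Principal components of the 1000 most variable genes, with embryo means removed, put the EPI-PrE axis second. Component 1 held 10.8% of the variance. Its extremes were Elp2, Ndufs1, Ppme1, Psmd1 and Rnf2 on one side and Lsm4, Emc6, Cox5a, Mrpl57 and Rpl13 on the other. Among lineage markers, Lamb1 (0.0497) and Pdgfra (0.0456) had loadings on it as large in size as Mrpl57 (−0.0409) and Rpl13 (−0.0407), and Nanog had 0.00636. Its Spearman correlation with the score was −0.22 over the 64 cells, with the number of genes detected 0.26, with the rRNA share −0.28 and, over the 1000 gene loadings, with exon length 0.29. The part of RNA quality in component 1 was not tested. Component 2 held 4.97% and correlated with the score at 0.84, a relation that overlapping genes partly fix. Its rRNA correlation was −0.41 and its depth correlation 0.27. Nanog had the highest loading of all 1000 genes, followed by Trim43a, Slc7a3, Dusp14 and Spic, and the lowest were Havcr1, Timd2, Tfpi, a coagulation inhibitor gene, Pdgfra and Cpn1.

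Differences between embryos held a small share of the variance over cells for most genes and a large share for a few. Of 5399 genes, the median share of variance between embryos was 4.44%, the upper quartile 12.3%, and 41 genes exceeded 50%. Nanog (7.98%), Gata6 (0.904%), Pdgfra (0%) and Tdgf1 (2.45%) had nearly all of this variance within embryos, a part that also holds measurement noise. Estimates below 0 were set to 0, and 1671 genes had a share of 0. Such a share does not mean equal embryos: Pdgfra medians were 44.2, 10.6, 117, 125 and 114 CPM in embryos 13, 16, 20, 21 and 22. Of the 41, 22 were annotated pseudogenes, and the highest shares belonged to copies of ribosomal protein genes. The share of pseudogenes among all 5399 genes was not counted, so the 22 cannot be read as an excess. Rps13-ps1 (91.8%) had medians of 1.06 and 1.26 CPM in embryos 16 and 21 and 73.5 to 108 in embryos 13, 20 and 22. Gm10020 (88.4%) and Rpl15-ps2 (86.7%) were at 1.81 and 0.45 CPM in embryo 20 and at 59.96 to 73.9 and 22.2 to 28.0 in the other 4 embryos. Gm15772, Rps24-ps3, Gm13394, Rpsa-ps10 and Gm8399 had shares of 74.6 to 91.7%. Rpsa itself (79.6%), a ribosomal protein gene, had a median of 184 CPM in embryo 21 and 707 to 1537 in the others. Reads may be shared between such copies and their parent genes, which was not tested, so these levels are uncertain.

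Embryo 16 stood apart from the others in several genes not annotated as pseudogenes. 4930550L24Rik (78.8%) had a median of 760 CPM in embryo 16 and 0.14 to 9.34 in the other 4, and BC049730 155 against 0 to 0.23. Alppl2, an alkaline phosphatase gene (64.6%), had a median of 307 CPM against 0.545 to 3.59, and Pemt, which encodes a phospholipid methyltransferase (63.0%), 191 against 0 to 29.2. BC049730, Alppl2 and Pemt were named after their values were seen. Sparc (41.6%) was lowest in embryo 16, with a median of 187 CPM against 470 to 686. Embryo 16 was also the embryo in which the score varied least and in which most cells had both Nanog and Gata6.

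Dppa5a and Pou5f1 ran in opposite order over embryos 13, 16, 20 and 21, but both medians were slightly higher in embryo 22 than in embryo 21. The median of Dppa5a (53.9%) was 1573 CPM in embryo 13, 2286 in embryo 16, 4529 in embryo 20, 8760 in embryo 21 and 9836 in embryo 22. For Pou5f1 (42.7%), the octamer-binding factor gene OCT4, the medians were 572, 518, 308, 130 and 137 CPM. Embryos 21 and 22 were the female ones, so sex cannot be told apart from other differences between embryos. Sod1, the superoxide dismutase gene (55.8%), was also lowest in embryo 13 and highest in embryos 21 and 22, with medians of 362, 574, 532, 925 and 1074 CPM, but embryo 16 lay above embryo 20. It too was named after its values were seen. The title letters D to H explained less than embryos, with a median share of 0.115%. Over the 5399 genes, 4 exceeded 50% by letter, namely mt-Co3 (72.3%), Gm28437, mt-Atp6 (63.6%) and Gm10925, in which the mitochondrial genes and nuclear copies of them followed each other (rho 0.95 between mt-Co3 and Gm28437), so they are uncertain. Medians of mt-Co3 were 8.15 and 8.32 CPM for letters D and E and 17.95 to 29.6 for F, G and H.

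**Figure D5:**
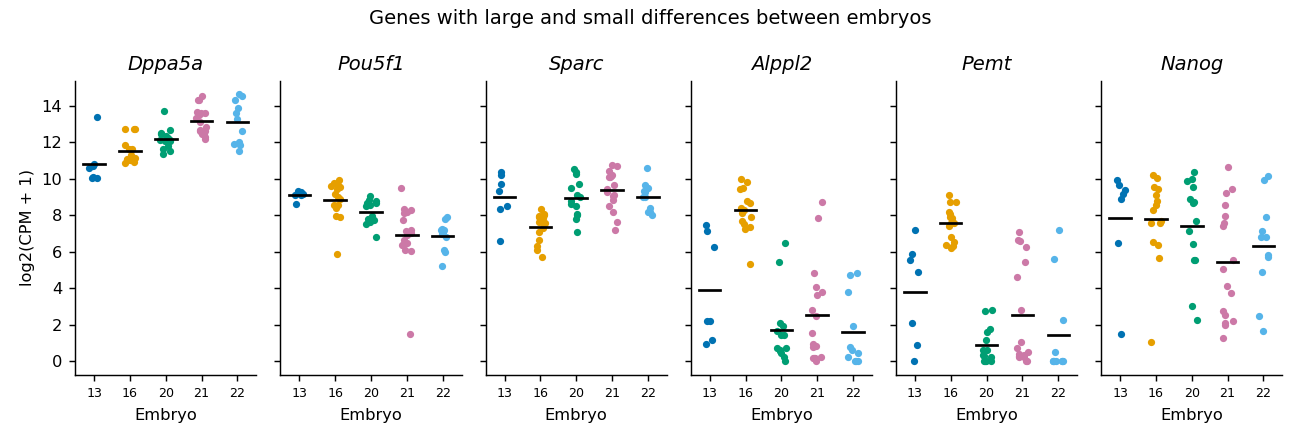
Each point is 1 of the 64 wild-type ICM cells, with log2(CPM + 1) on the y axis and the embryo number on the x axis; black lines are embryo means of the plotted values. Dppa5a is lowest and Pou5f1 highest in embryo 13, Alppl2 and Pemt are high in embryo 16, and Nanog spreads within each embryo.

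Other gene lists describe what the cells otherwise expressed. Of 15 pluripotency factors shared by both lineages, 12 reached 10 CPM in more than 32 cells, among them Dppa3 (362 to 7411 CPM), Dppa2 (72.6 to 1920) and Tfcp2l1 (8.20 to 3491). Zfp42, the naive-state zinc-finger gene Rex1, followed Nanog (0.52) and ran against Gata6 (−0.48). Stat3 had a median of 61.0 CPM, with 47 cells at 10 CPM. Klf4 reached 10 CPM in 30 cells, Nr0b1 in 3 and Gbx2 in 0, where the highest cell stood at 3.62 CPM. In the FGF pathway, the feedback inhibitor gene Spry2 was frequent (62 cells), as were the ETS factor gene Etv5 (48) and Fgfr1 (41). The receptors Fgfr3 and Fgfr4 reached 10 CPM in 8 and 3 cells. In the Nodal pathway, Tdgf1 and the cofactor gene Foxh1 (57 cells) were frequent, whereas the ligand gene Nodal reached 10 CPM in 3 cells, Lefty1 in 7 and Lefty2, a Nodal antagonist with up to 1302 CPM, in 25.

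Trophectoderm is the other tissue of the blastocyst. Its list was summed at 0.713 to 1376 CPM per cell, with a median of 333, and 6 of its 12 genes reached 10 CPM in fewer than 4 cells. The defining factor genes Cdx2, Elf5, Gata3 and Eomes had medians of 0. Cdx2 reached 10 CPM in 1 cell (25.6 CPM), Elf5 in 0, and Gata3 and Eomes in 5 each, with up to 177 and 182 CPM. The keratin gene Krt8 (60 cells), Ptges (39) and Krt18 (21) were the frequent members, and Krt8 was also found at a median of 142 CPM in E3.75 PrE cells. Of 7 genes of the 2-cell stage, 6 had no read, and Usp17la reached 10 CPM in 1 cell. Genes of S phase correlated within embryos (11 genes, median 0.41), more than those of G2/M (15 genes, 0.07). Rrm2, a ribonucleotide reductase subunit gene, ran from 5.71 to 2066 CPM and the mitotic cyclin gene Ccnb1 from 3.12 to 2772. Among p53 targets, Pmaip1 reached 1254 CPM in cell 09 of embryo 22 and Cdkn1a 717 CPM in cell 07 of that embryo, while their medians over the cells were 15.3 and 0 CPM.

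To show where the E3.5 cells differ from the later lineages, counts were summed per embryo, so that deeper cells weigh more, and 5 ICM sums were tested against 3 E3.75 sums with edgeR. Title letters differ between the stages, so stage and letter cannot be told apart in these tests. Over single cells, the mt-Rnr1 median was 5547 CPM in wild-type and 3708 in MUT ICM cells, against 536 in EPI and 756 in PrE cells. In sums, a lower level in all cells and fewer cells with a gene cannot be told apart. Against EPI, 43 of 13972 genes were called (0.308%, adjusted p under 0.05), 0 of them among the 11 EPI or 19 tested PrE markers. The median log2 difference (ICM minus EPI) was −0.93 for EPI markers and 1.79 for PrE markers, beside 0.14 for all genes. Fgfr2 had 20.6 CPM in ICM and 1.08 in EPI sums (log2 4.56, SE 1.01, edgeR adjusted p = 0.0819), Pdgfra 210 and 20.5 (3.55, SE 1.21, 0.223) and Nanog 449 and 1110 (−0.93, SE 0.37, 0.306). The DESeq2 Wald test called 1085 genes, so the count rests on the tool, and edgeR had 1966 genes at an unadjusted p under 0.05. Leaving out 1 embryo moved the edgeR count to between 0 (without EPI of embryo 02) and 162 (without ICM embryo 13). Against PrE, 46 of 13190 genes were called (0.349%), of which 32 were lower in ICM (0.243%) and 14 higher (0.106%). The ICM and PrE comparison shares its ICM embryos with the first, so the 2 are not independent.

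Sox17 and the collagen gene Col4a2 were the 2 of 20 PrE markers called lower in ICM than in PrE, and Fgf4 the 1 of 11 EPI markers called higher. The Sox17 sums were 1.15, 0.253, 2.74, 5.52 and 2.64 CPM in embryos 13, 16, 20, 21 and 22, against 313, 547 and 539 CPM in the PrE of embryos 01, 02 and 03. The groups did not overlap, and the log2 difference was −7.34 (SE 0.81, edgeR adjusted p = 0.00855). Against EPI, Sox17 was also lower in ICM, but was not called (log2 −1.86, edgeR adjusted p = 0.505). Col4a2 stood at 5.35 to 24.1 CPM in ICM and 126 to 477 in PrE (−3.96, SE 0.56, edgeR adjusted p = 0.026). Fgf4 stood at 18.3 to 93.7 CPM in ICM and 0.330 to 0.959 in PrE (6.40, SE 1.07, edgeR adjusted p = 0.0495). The PrE of embryo 03 is 1 cell, and without it edgeR called 0 genes, so all 3 calls were lost. The differences kept their size: over 15 settings Sox17 stayed between −7.80 and −7.05 and Fgf4 between 6.03 and 6.66 on the log2 scale. Sox17 was called in 12 of the 15 (adjusted p up to 0.0653 by edgeR or DESeq2), whereas Fgf4 was called in 5 (up to 0.207). Pdgfra showed little difference, 210 and 307 CPM (−0.35, SE 0.48, edgeR adjusted p = 0.808), whereas Gata4 had 26.5 and 326 CPM (−3.43, SE 0.63, edgeR adjusted p = 0.0537). The medians were 2.69 for EPI and −2.93 for PrE markers, beside 0.17 for all genes.

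Outside the lineage markers, Egr1, an immediate early gene that FGF and ERK signalling induces, was called lower in ICM than in both later groups. Its sums were 17.8 to 44.5 CPM in ICM, 273 to 487 in EPI (log2 −3.24, SE 0.41, edgeR adjusted p = 0.0244) and 513 to 1087 in PrE (−4.55, SE 0.45, edgeR adjusted p = 0.00855), with no overlap. Slbp, the histone mRNA binding protein gene of the S phase list, was higher in ICM than in EPI, with 210 to 469 CPM against 78.6 to 106 (2.16, SE 0.35, edgeR adjusted p = 0.0429). With 0 genes called without EPI of embryo 02, or without PrE of embryo 03, the Egr1 and Slbp calls against that group were lost too. Of the lists tested, FGF pathway genes had 1 of 19 (Egr1) called lower against EPI, and 1 lower (Egr1) and 1 higher (Fgf4) against PrE. Immediate early and heat shock genes had 1 of 11 (Egr1) lower in each comparison, and S phase genes 1 of 13 (Slbp) higher against EPI. None of the 15 shared pluripotency, 14 tested Nodal, 15 G2/M or 8 tested p53 genes was called in either comparison. Over all tested genes, 0.308% were called against EPI and 0.349% against PrE. At such shares, the absence of calls in lists this small says little about them. The 11 immediate early and heat shock genes had medians of −2.35 against EPI and −3.18 against PrE. The sources used here do not say how cells of either stage were handled, and the part of handling in these values was not tested.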

How the data were processed

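Single-cell RNA sequencing gave 171 deposited cells, 1 per sample, in 1 table of 49671 genes. The authors deposited raw counts per gene; STAR, HTSeq and mm10 are named in the submitters' processing notes. The sources used here give no versions, strand setting or library method. Whether molecular identifiers were used is therefore not known, and PCR copies may have been counted as separate molecules. Names, positions and exon lengths came from GENCODE vM21 (49326 rows matched; the other 345 held 0.0101% of counts). Stage, genotype, embryo, cell and letter come from the titles. Embryo identity is read from the number that follows the genotype there; the labels do not spell this out, and p-values measure the spread between these sums or embryos. The members and gene lists were chosen with earlier results of these data known.

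Counts were scaled to CPM of each cell's total and log2(CPM + 1) was used for variation. Genes with a mean of 20 CPM or more over embryos entered variance components, lowess (fraction 0.3), Spearman correlations on values with embryo means removed, and principal components; cells are not replicates, so none of these has a p. No clustering and no doublet search was done. Embryo sums were tested with edgeR 4.0.16 (R 4.3.3, quasi-likelihood F test, TMM, filterByExpr with minimum count 10, robust, Benjamini-Hochberg, threshold 0.05), with DESeq2 1.42.0 as an alternative. SEs were obtained as |log2 difference| divided by √F. CPM of sums are not TMM-scaled. Scripts for variation and edgeR were tested on simulated data. Python 3.11.15, numpy 2.4.6, scipy 1.17.1, pandas 2.3.3, statsmodels 0.14.6 and matplotlib 3.10.9 were used. Genes named were the markers and list members, the 20 highest by CPM and 10 per kilobase, the 15 most variable, the 10 with the largest share between embryos, those nearest to Nanog and Gata6 (8 highest, 4 lowest), and the 5 highest and lowest loadings of 2 components; exceptions are stated, and some named by this rule are not reported here.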

Additional observations from a re-analysis of the deposited data

Results flagged for a closer look

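Of 27 quantities compared over the 5 embryos, 1 had an embryo far from the other 4 by a gap test at the 95% level, which chance flags about 1 time in 20. The median share of counts in ribosomal RNA genes was 26.8% in embryo 13 and 6.59 to 12.2% in the others. Recomputing CPM without these genes left the Nanog and Gata6 correlation at −0.64 and the share of cells with both at 43.8%.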

How the results depend on the processing

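The correlation of Nanog and Gata6 stayed negative under every alternative run, from −0.66 without embryo 16 to −0.54 with no embryo means removed, and was −0.63 without the 3 cells of embryo 20 with discordant X- and Y-linked reads, an alternative chosen after seeing the data. The median correlations among EPI markers (0.21 to 0.25), among PrE markers (0.29 to 0.41) and between the lists (−0.27 to −0.17) kept their sign. The share of cells with both genes followed the threshold, at 81.25% from 1 CPM and 17.2% from 50 CPM, and ran from 34.7% to 51.1% when 1 embryo was left out. The median share of variance between embryos was 2.61% to 5.14% with 1 embryo left out and 0.115% with the title letter in place of the embryo. The difference in score spread between stages did not pass 0.05 after adjustment under any setting. The number of genes called was unstable. Against EPI it was 85 without a low-count filter, 1085 with DESeq2, and ran from 0 to 162 with 1 embryo left out: 162, 18, 7, 11 and 70 without ICM embryos 13, 16, 20, 21 and 22, and 3, 0 and 2 without EPI of embryos 01, 02 and 03. Against PrE it was 118 without the filter and 1192 with DESeq2, and ran from 0 to 42: 29, 11, 8, 18 and 42 without the same ICM embryos, and 22, 2 and 0 without PrE of embryos 01, 02 and 03. Leaving out sums of 1 cell removes PrE of embryo 03, which gave 0, and removes no EPI sum. No paired analysis was possible because the E3.5 and E3.75 wild-type embryos share no number. Depth limits low genes: 3 of 64 cells fell under 1000000 counts.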
